A study of Rattus norvegicus with 28 samples.

Results

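Endothelial preparations of DA (Dark Agouti) rat hearts taken 4 days after grafting into Lewis recipients were compared with preparations of normal, non-transplanted DA hearts. The 3 arrays titled as day 4 allografts and the 3 titled as allograft controls were chosen, 6 of the 28 samples of the series, and all 14217 genes that could be named were compared. Day 4 was the latest time sampled, at the onset of acute rejection. The study also measured endothelium of allografts on days 2 and 3, of normal Lewis hearts and of Lewis hearts grafted into Lewis rats (isografts) on days 2, 3 and 4, with 3 arrays in each group, and leukocytes of allografts on 4 arrays. All rats were male, and the labels state no age. The grafted hearts had been placed in the recipient's neck by cuffing, and the control hearts had no surgery. Hearts were minced, cells that bound a CD45 antibody were taken out with beads, and cells that bound a CD31 antibody were then collected. Arrays of a group are biological replicates by the series' own words, with no number of animals stated. The spread behind each p-value is that between arrays of the same group, pooled over the 8 groups of 24 endothelial arrays. It may in part be technical, and it is not that of the 6 compared arrays alone.

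Endothelial cells line the vessels of a graft and are among the first donor cells that recipient T cells meet. T cells that recognise foreign MHC molecules release interferon-gamma, which switches on chemokine, antigen processing and MHC genes in vessel cells. Selectins and other adhesion receptors hold passing leukocytes, while complement, coagulation and matrix genes take part in injury and repair.

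Values are log2 signals as deposited, so a difference of 1 is a doubling of signal, and a gene was called where limma's p-value, corrected over the 14217 genes by Benjamini-Hochberg, was under 0.05. The standard error (SE) of the difference had a median of 0.17 log2. One array stood apart. Day 4 replicate 1 lay nearer to the normal DA mean than the other 2 day 4 arrays in 1175 of the 1627 called genes (72.2%), while replicate 3 lay farthest from it in 1049 (64.5%). Correlations across genes between the day 4 arrays were 0.965 to 0.982, against 0.989 to 0.993 between the normal DA arrays. Red cell genes were high in the same array: Alas2, the heme synthesis enzyme of red cells, was 11.68 in replicate 1 against 7.01 and 7.42 in the other 2, with 9.8, 9.11 and 9.33 in the normal arrays. The part of red cell RNA in the results was not tested. Counts that this array decides are also given without it, an alternative added after the data had been seen. Replicate 1 was set apart for lying nearest to the normal mean, so larger differences without it follow in part from that choice.

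The preparations kept endothelial signals, with leukocyte transcripts beside them. Pecam1, which encodes the CD31 used for collection, was 11.87, 12.18 and 11.7 in normal hearts and 11.66, 11.67 and 10.99 on day 4, a difference of -0.48 log2 that did not pass the test (SE 0.24, adjusted p = 0.234). Vwf, the von Willebrand factor of endothelial granules, was 11.5, 11.49 and 11.5 against 12.12, 12.06 and 11.14 and did not pass either (adjusted p = 0.502). The summed signal of the 23 measured endothelial markers was 16.7 to 16.77 log2 in normal and 16.31 to 16.59 in day 4 arrays. Of these markers 4 fell, among them Icam2 (-0.65), Kdr (-0.6) and Tek (-0.55), and 1, the diaphragm gene Plvap, rose by 2.1 log2. The calls were 1 higher and 1 lower without normal replicate 2 or 3 or day 4 replicate 2 and 1 higher and 2 lower without normal replicate 1 or day 4 replicate 3. Single genes lost their call as well: Kdr without normal replicate 1, 2 or 3 or day 4 replicate 2 (adjusted p = 0.059 to 0.134) and Tek without normal replicate 1, 2 or 3 or day 4 replicate 2 or 3 (adjusted p = 0.0886 to 0.324, -0.83 log2 without day 4 replicate 1, -0.31 log2 without day 4 replicate 3). Ptprc, the gene of the CD45 used for depletion, was 5.43, 5.44 and 5.41 in normal arrays and 8.11, 9.08 and 9.5 on day 4 (3.47 log2, SE 0.45, adjusted p = 3.63e-05). In such mixed preparations fewer cells of a type and less RNA per cell cannot be told apart.

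Across all genes 1022 were higher on day 4 (7.19%) and 605 lower (4.26%), together 11.4%, and the median difference over all genes was -1e-04 log2. Most large changes were upward: 512 genes rose and 145 fell by at least 2-fold, 187 rose and 9 fell by at least 4-fold, and 24 rose and 0 fell by at least 16-fold. The arrays of the groups did not overlap in 1994 genes that were higher (14%) and 1618 that were lower (11.4%), called or not. Without day 4 replicate 1 the counts were 1673 higher (11.8%) and 933 lower (6.56%). The shares higher and lower were 4.78% and 3.24% without day 4 replicate 2 and 4.23% and 1.83% without day 4 replicate 3. Without normal replicates 1, 2 and 3 in turn they were 5.52% and 3%, 4.58% and 2.47%, and 4.73% and 2.49%.

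**Figure D1:**
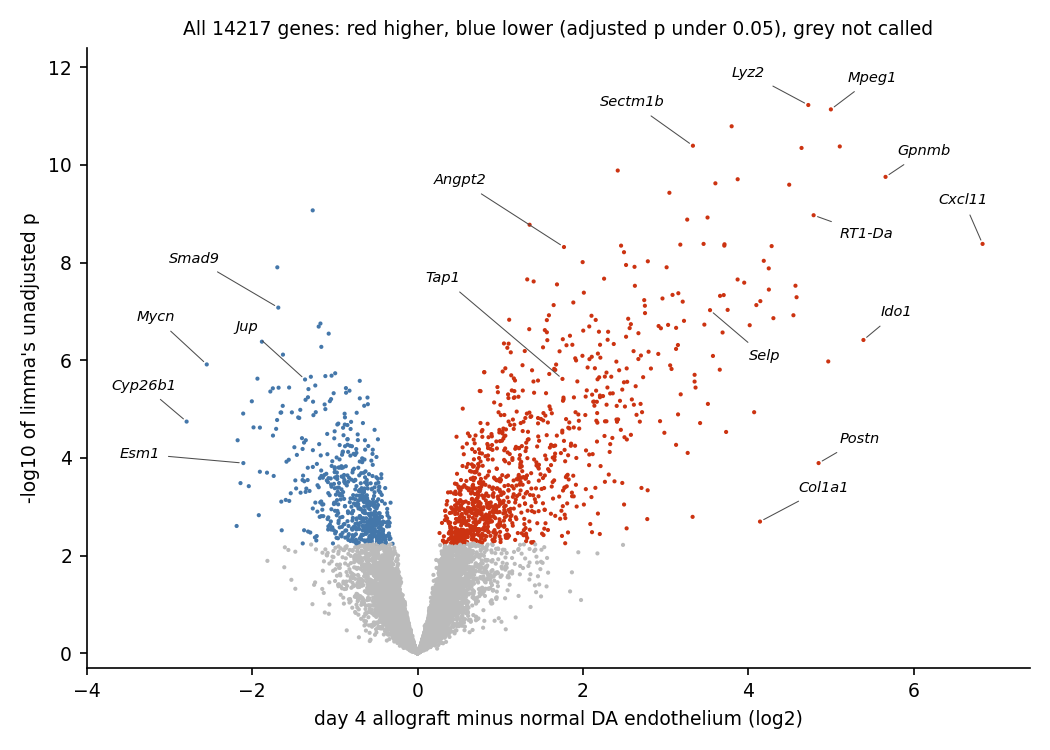
Difference between day 4 allograft and normal DA endothelium in log2 (x axis) against -log10 of limma's unadjusted p (y axis), a point for each gene, with called genes in red (1022 higher) and blue (605 lower). The red points reach 6.83 log2 at Cxcl11, while the lowest blue point is Cyp26b1 at -2.79 log2.

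The largest rise of a single gene was that of Cxcl11, a target of interferon-gamma. Of the 31 measured genes of this list 23 rose and 0 fell, with a median difference of 1.75 log2 against -1e-04 over all genes. Cxcl11, a chemokine that draws activated T cells through the receptor CXCR3, was 6.59, 6.17 and 6.23 in normal hearts and 12.36, 13.18 and 13.94 on day 4 (6.83 log2, SE 0.7, adjusted p = 2.72e-06). All day 4 values lay far above the normal ones. Ido1, the enzyme that opens tryptophan breakdown, was 5.41, 5.74 and 5.83 against 9.08, 10.62 and 13.45 (5.39 log2, SE 0.73, adjusted p = 5.75e-05). The normal arrays were close together and the day 4 arrays widely spread (standard deviation 2.22), with replicate 1 lowest and replicate 3 highest. The SE and p-value of Ido1 rest on the spread pooled over all groups.

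Ubd, which encodes the ubiquitin-like modifier FAT10, was 9.88, 10.76 and 11.02 against 13.55, 14.39 and 14.43 (3.57 log2, SE 0.51, adjusted p = 9.76e-05). Batf2, a transcription factor gene of the AP-1 family, was 5.87, 5.85 and 5.92 against 7.28, 9.4 and 11.03 (3.36 log2, SE 0.53, adjusted p = 0.000293). Sectm1b, a relative of the human gene SECTM1, was 6.36, 6.42 and 6.43 against 8.99, 9.64 and 10.56 (3.33 log2, SE 0.26, adjusted p = 1.06e-07). The groups were apart in each of the 3 genes, and Batf2 had the widest spread on day 4. The other CXCR3 ligands Cxcl10 and Cxcl9 rose by 3.73 and 3.27 log2. Smaller rises were those of the interferon-inducible GTPase genes Gbp7 (1.92) and Igtp (1.76) and of Wars1, a tryptophanyl-tRNA synthetase gene (2.74). Gbp7 was not called without normal replicate 3 (adjusted p = 0.0631) or without day 4 replicate 3 (adjusted p = 0.0923). With each of the 6 arrays left out in turn the list counted 18 to 26 of 31.

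Genes that carry the interferon signal moved less. Of 21 transducers 5 rose and 1 fell, with a median of 0.34 log2, and 4 to 7 higher and 0 to 2 lower were counted with 1 of the 6 arrays left out. Irf8, an interferon regulatory factor also made by myeloid cells, was 7.42, 7.57 and 8.08 against 9.74, 10.81 and 11.67 (3.05 log2, SE 0.45, adjusted p = 0.000138), with no overlap. Ptpn6, a phosphatase of blood cells that restrains such signals, rose by 1.84 log2. Ifng, the gene of interferon-gamma itself, was 3.8, 4.14 and 4.01 against 4.28, 4.47 and 5.56 and did not pass the test (adjusted p = 0.0943).

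Most type I interferon targets did not pass the test. Of 31 measured members 4 rose (12.9%, against 7.19% of all genes) and 0 fell, and the median was -0.07 log2. The risers were Zbp1 (1.46), a sensor of unusual nucleic acids, Parp14 (0.99), Parp9 (0.89) and its partner Dtx3l (0.71). The calls were 1 higher and 0 lower without normal replicate 3 or day 4 replicate 3, 2 higher and 0 lower without normal replicate 1 or 2 or day 4 replicate 2 and 5 higher and 1 lower without day 4 replicate 1. Parp14 and Dtx3l kept their call only without day 4 replicate 1 among these fits. Zbp1 was not called without normal replicate 3 or day 4 replicate 3 (adjusted p = 0.05 to 0.0634, 0.83 log2 without day 4 replicate 3).

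Promoters of risers that carry letters known from interferon-responsive genes are shown because the genes moved together. Interferon regulatory factors bind ISRE elements, which were searched as GAAANN directly followed by GAAA, on both strands. The windows come from RefSeq (build GRCr8) and run from 250 bases before to 50 bases after the start of the gene, 300 in all, written 5′ to 3′ on the strand of the gene, with matches to ISRE or Y box in capitals. Igtp (chr10:42874797-42875096, plus strand) held an ISRE match that began at position -103. Gbp7 (chr2:233948639-233948938, plus strand) held one at -41. Tap1 (chr20:4668494-4668793, minus strand) held an ISRE match at -121, and Batf2 (chr1:212897096-212897395, plus strand) one at -73. RT1-Da (chr20:4515165-4515464, plus strand) is added for its Y box, CTGATTGG, the element that NF-Y binds in MHC class II promoters, at -52. No match shown overlaps another.
Igtp: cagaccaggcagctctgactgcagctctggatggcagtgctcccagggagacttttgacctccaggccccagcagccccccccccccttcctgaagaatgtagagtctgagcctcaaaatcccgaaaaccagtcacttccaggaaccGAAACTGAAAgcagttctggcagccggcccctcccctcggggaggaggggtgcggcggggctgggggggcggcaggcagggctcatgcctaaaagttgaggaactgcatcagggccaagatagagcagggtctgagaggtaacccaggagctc
Gbp7: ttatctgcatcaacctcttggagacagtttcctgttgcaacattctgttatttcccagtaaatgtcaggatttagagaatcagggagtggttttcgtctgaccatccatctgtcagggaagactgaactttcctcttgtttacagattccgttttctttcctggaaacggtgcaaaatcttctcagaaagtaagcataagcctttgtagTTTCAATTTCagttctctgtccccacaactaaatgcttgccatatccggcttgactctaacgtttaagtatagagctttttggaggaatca
Tap1: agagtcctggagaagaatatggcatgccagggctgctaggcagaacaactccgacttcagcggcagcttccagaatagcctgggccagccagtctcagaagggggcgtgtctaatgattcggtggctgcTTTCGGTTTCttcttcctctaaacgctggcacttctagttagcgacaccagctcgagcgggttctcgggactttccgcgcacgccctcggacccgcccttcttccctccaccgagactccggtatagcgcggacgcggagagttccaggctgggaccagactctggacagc
Batf2: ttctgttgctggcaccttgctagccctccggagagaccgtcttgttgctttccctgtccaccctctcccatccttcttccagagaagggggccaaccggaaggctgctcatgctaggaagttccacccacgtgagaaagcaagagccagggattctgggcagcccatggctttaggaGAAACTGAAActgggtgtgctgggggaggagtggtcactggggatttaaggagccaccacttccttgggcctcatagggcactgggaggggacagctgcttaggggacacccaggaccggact
RT1-Da: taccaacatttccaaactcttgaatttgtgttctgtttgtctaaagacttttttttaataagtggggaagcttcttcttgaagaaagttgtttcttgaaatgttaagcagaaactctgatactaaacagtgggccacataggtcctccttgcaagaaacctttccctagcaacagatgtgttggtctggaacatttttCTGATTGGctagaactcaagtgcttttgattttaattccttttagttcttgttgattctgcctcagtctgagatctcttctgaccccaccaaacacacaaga

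Windows were found for 25 of the 31 measured members of the interferon-gamma list, and 13 of these (52%) held an ISRE match. Of the 11700 windows of tested genes 2.99% held the ISRE letters, and of all 27457 windows 3.77%. Among genes that rose on day 4, 44 of 820 windows held an ISRE match (5.37%), and among those that fell 5 of 491 (1.02%). Type I interferon genes, most of which were not called, held the ISRE letters in 16 of 23 windows (69.6%). The Y box stood in 4 of 8 windows of MHC class II genes in 4.75% of the windows of tested genes and in 3.55% of all windows. The window of Sectm1b held no ISRE letters, which says only that they are not in those 300 bases. Letters known from NF-kB sites (GGGRNWYYCC) and AP-1 sites (TGANTCA) were searched as well and are not in capitals above. In the interferon-gamma list 7 of 25 windows (28%) held the former and 4 (16%) the latter. Among windows of tested genes the shares were 4.95% and 5.43%. A match describes the sequence, and binding was not measured.

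MHC class II genes rose nearly as a whole, while most class I genes were not called. Of 10 measured class II genes 9 rose, with a median of 3.27 log2, and 9 were counted with any of the 6 arrays left out. RT1-Da, an alpha chain gene, was 7.47, 6.95 and 6.79 in normal hearts and 11.4, 11.995 and 12.18 on day 4 (4.79 log2, SE 0.45, adjusted p = 1.09e-06). Cd74, the invariant chain that guides class II molecules, was 7.64, 7.65 and 7.84 against 10.75, 11.95 and 12.71 (4.09 log2, SE 0.5, adjusted p = 1.89e-05). The groups were well apart in both. The beta chain genes RT1-Bb and RT1-Db1 rose by 4.57 and 3.87 log2, although a dimmer probe set of RT1-Bb differed by 0.01 and was not called. All 9 risers were at least 2-fold higher, without overlap, in graft leukocytes than in day 4 endothelium, so leukocyte transcripts moved with this list. Their part in the result was not tested.

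Among 19 class I and peptide loading genes 2 rose (10.5%, against 7.19% of all genes) and 0 fell, with a median of 0.29 log2. Tap1, a subunit of the peptide pump, was 10.38, 10.56 and 10.78 against 11.66, 12.25 and 13.07 (1.75 log2, SE 0.27, adjusted p = 0.000215), with a dimmer probe set at 0.27 and not called. Nlrc5, the transactivator of class I genes, was 6.73, 6.78 and 7.32 against 8.02, 8.77 and 9.28 (1.75 log2, SE 0.32, adjusted p = 0.00121). Both were apart between the groups. Without day 4 replicate 1, 7 of the 19 rose and 1 fell. RT1 genes form a family of near-identical copies, and their probe sets may not part them. The interferon-inducible proteasome subunits Psmb9 (1.16), Psmb8 (1.1) and Psmb10 (0.9) and the activator gene Psme2 (0.995) rose, 4 of 6 in their list, against 0 without day 4 replicate 3. Other arrays decided calls too: Psmb8 without normal replicate 1 or day 4 replicate 2 or 3 (adjusted p = 0.0535 to 0.108) and Psme2 without normal replicate 2 or day 4 replicate 3 (adjusted p = 0.0624 to 0.105, 0.62 log2 without day 4 replicate 3). Of 30 constitutive proteasome genes 7 rose by 0.4 to 0.77 log2, and the count was 1 without normal replicate 2 or day 4 replicate 3, 4 without normal replicate 1 or 3 or day 4 replicate 2 and 11 without day 4 replicate 1.

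**Figure D2:**
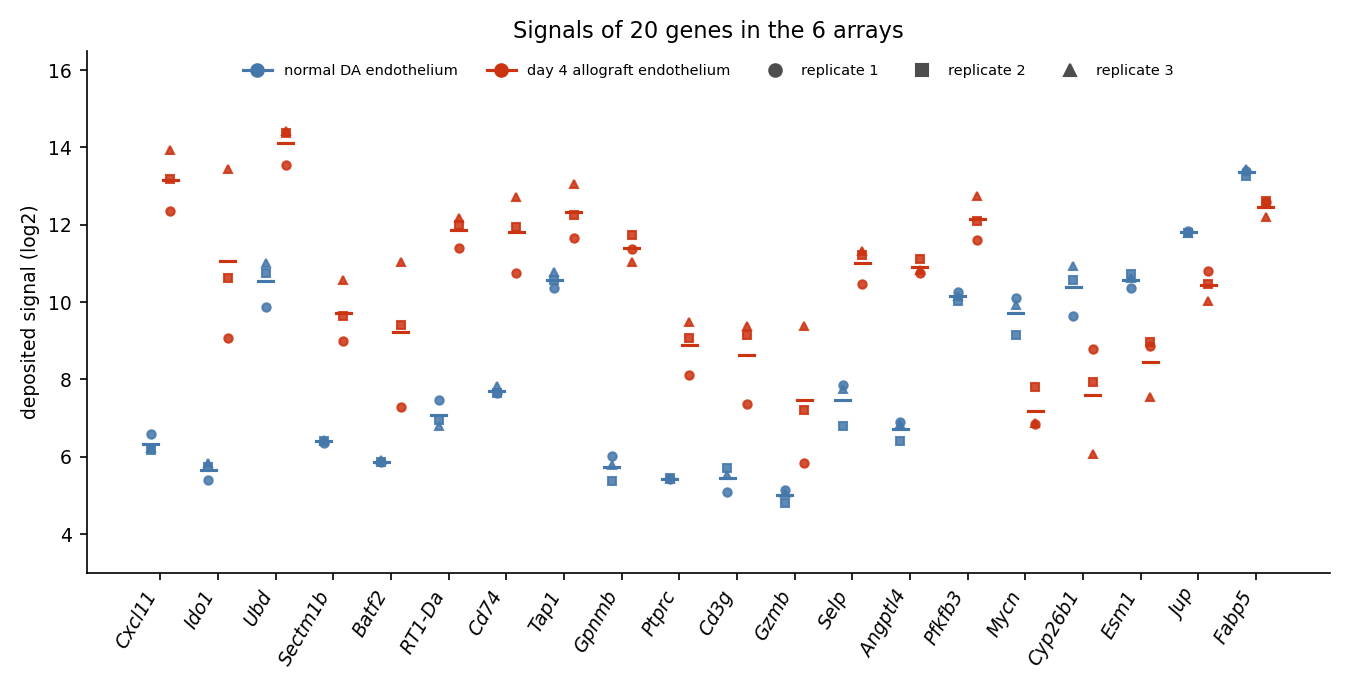
Deposited log2 signal (y axis) of 20 genes (x axis) in the 3 normal DA arrays (blue) and the 3 day 4 allograft arrays (red), with lines at the means and a symbol for each replicate. The groups do not overlap in any of the genes plotted, and for Ido1 day 4 replicate 3 reaches 13.45 while replicate 1 stands at 9.08.

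Chemokines and adhesion receptors, which call and hold leukocytes, rose in part. Of 16 CC chemokines 8 rose and 0 fell, with a median of 1.1 log2. Ccl2, which draws monocytes, was 9.43, 9.54 and 9.83 against 10.998, 12.62 and 12.68 (2.5 log2, SE 0.48, adjusted p = 0.00151), without overlap. Ccl6, Ccl7 and Ccl4 rose by 4.3, 3.15 and 2.51 log2. Of 15 CXC, CX3C and C chemokines 8 rose, among them the platelet chemokine Pf4 (2.4), and 1, Cxcl12, fell by 0.92 log2. The calls were 5 higher and 1 lower without day 4 replicate 2 and 6 higher and 0 lower without day 4 replicate 3, and Cxcl12 was not called without day 4 replicate 3 (adjusted p = 0.0682, -0.6 log2). Graft leukocytes had at least 2-fold higher levels than day 4 endothelium, without overlap, for 7 of the 16 CC and 5 of the 15 other chemokines, which did not include Cxcl11, Cxcl10 or Cxcl9.

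In the adhesion list 5 of 18 genes rose and 2 fell. Selp, the P-selectin on which leukocytes roll, was 7.85, 6.8 and 7.76 against 10.48, 11.22 and 11.31 (3.54 log2, SE 0.44, adjusted p = 2.23e-05). Sele, the E-selectin, was 9.46, 8.52 and 9.06 against 10.7, 11.8 and 12.12 (2.53 log2, SE 0.38, adjusted p = 0.000155). Ackr1, a chemokine-binding receptor of venules, rose by 2.78 and Vcam1, the ligand of a leukocyte integrin, by 1.61 log2. All day 4 arrays lay above all normal ones in these 4 genes, and graft leukocytes had lower levels of each, by 3.004 to 4.18 log2. A dimmer probe set of Selp differed by 0.25 and was not called. Icam2 (-0.65) and Jam3 (-0.98) fell, and Jam3 was not called without normal replicate 1, 2 or 3 or day 4 replicate 2 or 3 (adjusted p = 0.0642 to 0.309, -1.51 log2 without day 4 replicate 1, -0.49 log2 without day 4 replicate 3). Of 14 costimulatory genes 5 rose, among them Tnfrsf14 (1.78), Nectin2 (1.37) and Cd40 (1.15), the partner of a T cell ligand, against 3 without normal replicate 2 or 3 or day 4 replicate 3. Tnfrsf14 differed by 0.99 log2 without day 4 replicate 3, and the dimmest probe set of Nectin2 differed by -0.13 and was not called.

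Immune cell transcripts rose although CD45-bearing cells had been depleted. Of 25 macrophage markers 24 rose, with a median of 3.08 log2, and 21 of the 25 rose in day 4 isografts, where 2.61% of all genes rose. The summed signal of this list was 12.47 to 12.79 in normal and 14.92 to 15.41 in day 4 arrays. Gpnmb, a glycoprotein gene of macrophages, was 6.03, 5.38 and 5.8 against 11.38, 11.74 and 11.05 (5.66 log2, SE 0.48, adjusted p = 3.1e-07). Lyz2, the lysozyme of phagocytes, was 8.71, 8.43 and 8.56 against 13.29, 13.54 and 13.03 (4.72 log2, SE 0.33, adjusted p = 5.18e-08). In both genes the groups were far apart and the day 4 arrays close together. Clec4a3, Mpeg1 and Clec10a rose by 5.1, 4.996 and 4.64 log2. Aif1 rose by 4.58 log2 by its brighter probe set and differed by -0.02 by the other. Of 18 markers shared by leukocytes 14 rose, with a median of 1.5 log2, among them Cd53 (4.25) and Coro1a (3.66).

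T cell markers rose in 17 of 22 cases, with a median of 1.29 log2 and a summed signal of 10.36 to 10.4 in normal and 11.2, 12.13 and 12.46 in day 4 replicates 1, 2 and 3. Cd3g, part of the T cell receptor complex, was 5.09, 5.71 and 5.52 against 7.36, 9.14 and 9.37 (3.18 log2, SE 0.52, adjusted p = 0.000358). Cd8a, Cd5 and Cd3e rose by 2.67, 2.32 and 2.17 log2, although the dimmest probe set of Cd8a differed by 0.17 and was not called. Day 4 replicate 1 was lowest of the 3 in all 4 genes. The count was 22 of 22 without that array and 11 without day 4 replicate 3. Of 23 cytotoxic lymphocyte markers 10 rose, with Gzmb, a killing protease, at 5.15, 4.8 and 5.06 against 5.84, 7.21 and 9.38 (2.47 log2, SE 0.57, adjusted p = 0.00717). Gzma, a relative of it, was 4.15, 4.26 and 4.24 against 4.81, 6.47 and 7.81 (2.15 log2, SE 0.51, adjusted p = 0.00838). Neither gene overlapped between groups, and replicate 1 again was nearest to normal. This list counted 3 without day 4 replicate 3, 5 without normal replicate 3 or day 4 replicate 2 and 6 without normal replicate 1 or 2. Its summed signal overlapped between the groups, at 13.26 to 13.34 in normal and 13.27 to 13.45 in day 4 arrays. Of its 23 members 11 stayed under a signal of 6 in every day 4 array. Gzmb differed by 1.53 log2 without day 4 replicate 3, and Gzma was not called without day 4 replicate 3 (adjusted p = 0.0679, 1.43 log2). B cell markers counted 1 of 12 (8.33%, near the 7.19% of all genes), Jchain at 1.31 log2. Neutrophil markers counted 0 of 14, of which 9 stayed under a signal of 6 in every day 4 array (1 higher and 0 lower without day 4 replicate 1). A dimmer probe set of Jchain differed by 0.25 and was not called. Of 10 dendritic cell markers 3 rose, with Itgax at 2.3 log2.

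Levels in graft leukocytes were set beside these values, after removal of the offset of 0.353 log2 between both sets of arrays. They were at least 2-fold higher than in day 4 endothelium, without overlap, for 8.58% of all genes, for 403 of the 1022 risers (39.4%) and for 23 of the 605 fallers (3.8%). They were lower by the same rule for 9.58% of all genes, 15.3% of the risers and 31.4% of the fallers. Of the 31 interferon-gamma genes leukocytes were lower by the rule for 6 and higher for 2. Relative to day 4 endothelium, the leukocyte mean over days 2, 3 and 4 stood at -3.56 for Ido1, -2.63 for Sectm1b and -2.5 log2 for Ubd, and the 1 leukocyte array of day 4 at -2.23, -2.12 and -1.62. For Cxcl11 the mean stood at -1.23 and the day 4 array at 0.3 log2, and for Cxcl10 at -0.94 and 0.67, so the day 4 leukocytes were above day 4 endothelium for both. With 1 or 2 leukocyte arrays a day these are levels with no test.

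Inflammatory genes of the NF-kB pathway rose in part. Of 29 measured members 9 rose and 1 fell, with a median of 0.59 log2, and the calls were 4 higher and 0 lower without day 4 replicate 3, 6 higher and 0 lower without normal replicate 3 and 18 higher and 1 lower without day 4 replicate 1. Il1b, the cytokine interleukin-1 beta, was 5.46, 5.62 and 5.29 against 8.94, 10.39 and 9.24 (4.07 log2, SE 0.7, adjusted p = 0.000665), and leukocytes stood 4.01 log2 above day 4 endothelium for it. Il18, another cytokine, rose by 2.71 and Ptgs2, the inducible prostaglandin synthase, by 2.5 log2. Tnf fell by 1.55 log2. Not called were Ptgs2 without normal replicate 2 or day 4 replicate 2 or 3 (adjusted p = 0.053 to 0.0831) and Tnf without normal replicate 3 or day 4 replicate 3 (adjusted p = 0.0509 to 0.0687). Of 17 Toll-like receptor genes and adaptors 7 rose, among them Cd14 (2.75) and Tlr2 (2.25), and 1, Tlr4, fell by 0.83 log2, against 5 higher and 0 lower without normal replicate 1 or day 4 replicate 3, 7 higher and 0 lower without day 4 replicate 2 and 8 higher and 0 lower without normal replicate 2. Tlr4 lost its call without normal replicate 1 or 2 or day 4 replicate 2 or 3 (adjusted p = 0.0913 to 0.141). Leukocytes were higher by the rule above in 7 of these 17 genes.

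Complement rose broadly. Of 12 components 8 rose and 0 fell, with a median of 2.23 log2, and the count was 8 with any of the 6 arrays left out. C1qa, a chain of the first component made by macrophages, was 6.37, 5.98 and 5.8 against 9.71, 10.14 and 9.91 (3.87 log2, SE 0.33, adjusted p = 3.1e-07). C1s, a protease of the same component, was 7.11, 7.17 and 8.54 against 9.43, 11.35 and 12.1 (3.35 log2, SE 0.51, adjusted p = 0.00019). Both genes were apart between the groups, and relative to day 4 endothelium leukocytes stood at 2.94 log2 for C1qa and -2.45 for C1s. Serping1, the inhibitor of C1, was 8.4, 8.21 and 8.93 against 10.65, 11.75 and 12.68 (3.18 log2, SE 0.32, adjusted p = 2.72e-06). Leukocytes were at least 2-fold higher, without overlap, for 6 of the 12 components, and their part in the result was not tested. Of 10 regulators and receptors 4 rose, among them C5ar1 (2.21) and Cd55 (1.3), and Cd55 was not called without normal replicate 2 or day 4 replicate 2 (adjusted p = 0.0602 to 0.0793).

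Coagulation and vascular tone genes moved both ways. Of 23 coagulation genes 4 rose and 2 fell, against 1 higher and 0 lower without normal replicate 3 or day 4 replicate 2, 1 higher and 1 lower without day 4 replicate 3 and 2 higher and 2 lower without normal replicate 1 or 2. F3, tissue factor, was 4.27, 4.7 and 4.3 against 4.57, 6.41 and 6.41 (1.38 log2, SE 0.36, adjusted p = 0.0148), and day 4 replicate 1 lay inside the normal range. Thbd, the thrombomodulin that turns thrombin to an anticoagulant role, was 12.07, 12.18 and 12.54 against 11.55, 11.67 and 11.97 and fell by 0.54 log2 (adjusted p = 0.0145). Calls were lost for F3 without normal replicate 1 or 3 or day 4 replicate 2 or 3 (adjusted p = 0.0533 to 0.109) and Thbd without normal replicate 3 or day 4 replicate 2 (adjusted p = 0.0545 to 0.102). In the vascular tone list 6 of 28 genes rose, among them the angiotensin receptor gene Agtr1a (2.44) and Ddah1 (1.81), which breaks down an inhibitor of nitric oxide synthesis. Npr3 (-1.06), a clearance receptor for natriuretic peptides, and Ddah2 (-0.74) fell, and the calls were 3 higher and 2 lower without normal replicate 2 or day 4 replicate 2.

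Genes of vessel growth moved in both directions. Of 28 VEGF, angiopoietin and tip cell genes 3 rose and 8 fell, with a median of -0.27 log2, and the calls were 3 higher and 4 lower without normal replicate 2 or 3 or day 4 replicate 3, 4 higher and 4 lower without normal replicate 1 and 5 higher and 8 lower without day 4 replicate 1. Angptl4, an inhibitor of lipoprotein lipase, was 6.9, 6.41 and 6.84 against 10.75, 11.12 and 10.83 (4.18 log2, SE 0.45, adjusted p = 4.78e-06). Angpt2, the angiopoietin that loosens vessels, was 9.75, 9.87 and 9.97 against 11.26, 11.62 and 12.02 (1.77 log2, SE 0.18, adjusted p = 2.73e-06), and Pgf, the placental growth factor, rose by 2.27 log2. Esm1, a proteoglycan gene of tip cells, was 10.35, 10.72 and 10.62 against 8.86, 8.97 and 7.55 (-2.11 log2, SE 0.45, adjusted p = 0.00373). Day 4 arrays of Angptl4 and Angpt2 all lay above the normal ones and those of Esm1 all below. Kdr, the main VEGF receptor, fell by 0.6 log2, a call lost without any 1 normal array or without day 4 replicate 2. In the Notch list 0 of 17 genes rose and 3 fell: the target Hey1 (-1.34), the feedback inhibitor Nrarp (-0.96) and the ligand Jag2 (-0.85). Calls were lost for Hey1 without day 4 replicate 3 (adjusted p = 0.0719) and Nrarp without normal replicate 1, 2 or 3 or day 4 replicate 2 or 3 (adjusted p = 0.0521 to 0.0914).

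BMP and TGF-beta signalling had the largest share of fallers among the 30 process lists with all arrays. That share was 34.4% without day 4 replicate 1, below the 42.1% of lipid uptake genes, and without day 4 replicate 2 it was 18.8%, below the 21.4% of the VEGF list. Of 32 genes 4 rose and 11 fell (34.4%, against 4.26% of all genes), with a median of -0.19 log2, and the calls were 1 higher and 6 lower without day 4 replicate 2, 1 higher and 8 lower without normal replicate 2, 2 higher and 8 lower without normal replicate 1 or day 4 replicate 3 and 3 higher and 7 lower without normal replicate 3. The 4 risers encode secreted factors: the activin chain genes Inhbb (2.98) and Inhba (1.71), Bmp4 (1.58) and the activin-binding Fst (0.86). A dimmer probe set of Inhba differed by 0.25 and was not called. Smad9, a BMP transducer, was 6.76, 6.53 and 7.4 against 5.26, 5.56 and 4.82 (-1.68 log2, SE 0.21, adjusted p = 2.05e-05), although a dimmer probe set differed by -0.16 and was not called. All day 4 values of the brighter set were below all normal ones. Other fallers were the inhibitory Smad6 (-1.05) and Smad7 (-0.98), the targets Id1 (-0.99) and Id3 (-0.61) and the receptor gene Acvrl1 (-0.64). Of the risers, calls were lost for Bmp4 without normal replicate 1 or 2 or day 4 replicate 2 or 3 (adjusted p = 0.0567 to 0.175) and Inhba without normal replicate 2 or day 4 replicate 2 (adjusted p = 0.0595 to 0.0617). Fst was not called without normal replicate 1, 2 or 3 or day 4 replicate 2 or 3 (adjusted p = 0.0726 to 0.223). Of the fallers, calls were lost for Smad7 without normal replicate 1 or 3 or day 4 replicate 1 or 2 (adjusted p = 0.0524 to 0.0694) and Acvrl1 without normal replicate 2 or 3 or day 4 replicate 2 or 3 (adjusted p = 0.0516 to 0.149). Id1 was not called without normal replicate 3 or day 4 replicate 2 (adjusted p = 0.0524 to 0.0595).

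Junction and lipid uptake genes of capillaries moved both ways. With all arrays 9.52% of the junction list rose and 14.3% fell, and 15.8% of the lipid uptake list rose and 15.8% fell. Over all genes the shares were 7.19% and 4.26%. Of 21 junction genes 2 rose and 3 fell, against 2 higher and 1 lower without normal replicate 1, 2 or 3 or day 4 replicate 2 or 3 and 2 higher and 5 lower without day 4 replicate 1. Jup, the plakoglobin of cell contacts, was 11.83, 11.78 and 11.79 against 10.81, 10.47 and 10.04 (-1.36 log2, SE 0.21, adjusted p = 0.000218). All its day 4 arrays lay below all normal ones. Gja4, a gap junction gene of arterial endothelium, rose by 1.02 log2. Of 19 lipid uptake genes 3 rose and 3 fell. The risers were Angptl4 (4.18), the lipoprotein lipase inhibitor already counted among vessel growth genes, Scarb1 (0.9) and Lrp8 (0.66). A dimmer probe set of Scarb1 differed by 0.63 and was not called. Lrp8 was not called without normal replicate 2 or day 4 replicate 3 (adjusted p = 0.101 to 0.146). Fabp5, a fatty acid carrier, fell from 13.38, 13.26 and 13.45 to 12.59, 12.63 and 12.2 (-0.9 log2, SE 0.17, adjusted p = 0.00143). The calls of this list numbered 2 higher and 1 lower without normal replicate 2 or day 4 replicate 3 and 3 higher and 8 lower without day 4 replicate 1. In the last of these fits 8 of the 19 fell.

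Metabolic and stress genes rose in part. Of 28 hypoxia and glycolysis genes 9 rose and 1 fell, and 8 to 9 higher and 0 to 2 lower were counted with 1 of the 6 arrays left out. Pfkfb3, a driver of glycolysis, was 10.25, 10.04 and 10.16 against 11.61, 12.11 and 12.75 (2.002 log2, SE 0.26, adjusted p = 4.19e-05), with another of its 3 probe sets at -0.03 and not called. Slc16a3, a lactate carrier, rose by 1.62 and Pfkp, a phosphofructokinase, by 1.45 log2. Of 23 oxidative stress genes 7 rose, led by Cybb, an oxidase gene of phagocytes (3.95). Mt2A, a metallothionein (3.12), Hmox1, which degrades heme (2.47), and Sod2 (2.35) rose as well. The calls were 9 higher and 1 lower without day 4 replicate 1. Graft leukocytes were at least 2-fold higher than day 4 endothelium, without overlap, for 7 of the 23, against 8.58% of all genes. Their part in the result was not tested. Of 25 genes of the unfolded protein and amino acid response 7 rose, led by Asns, which makes asparagine (2.26), and Mthfd2, a folate enzyme (1.75), against 3 higher and 0 lower without normal replicate 3 or day 4 replicate 3, 4 higher and 0 lower without normal replicate 2, 5 higher and 1 lower without day 4 replicate 2, 6 higher and 1 lower without normal replicate 1 and 9 higher and 1 lower without day 4 replicate 1.

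In the cell death list 7 of 31 rose and 1 fell, among the risers Bcl2a1 (3.35), Bid (1.72) and the inflammatory caspase gene Casp4 (1.25). Graft leukocytes were at least 2-fold higher than day 4 endothelium, without overlap, for 6 of the 31, against 8.58% of all genes. The calls were 3 higher and 1 lower without normal replicate 2, 4 higher and 0 lower without day 4 replicate 3, 4 higher and 1 lower without normal replicate 3 or day 4 replicate 2 and 14 higher and 1 lower without day 4 replicate 1. Casp4 was not called without normal replicate 2 or day 4 replicate 3 (adjusted p = 0.0505 to 0.0741, 0.83 log2 without day 4 replicate 3). Cell cycle genes counted 0 of 38 higher (against 7.19% of all genes) and 2 lower (5.26%, near the 4.26% of all genes). The fallers were Ccnd3 (-0.66) and Cdkn1b (-0.52). The calls of this list were 0 higher and 1 lower without normal replicate 2 or 3 or day 4 replicate 2 or 3, 3 higher and 2 lower without day 4 replicate 1 and 6 higher and 0 lower without normal replicate 1. The calls of both fallers depended on single arrays, with losses for Ccnd3 without normal replicate 1 (adjusted p = 0.0532) and Cdkn1b without normal replicate 1, 2 or 3 or day 4 replicate 2 or 3 (adjusted p = 0.0515 to 0.246). Respiratory chain genes counted 0 of 45 in either direction by limma, against 1 higher and 0 lower without normal replicate 3 and 6 higher and 0 lower without day 4 replicate 1, and 7 of them at an unadjusted p under 0.05.

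Matrix genes rose with a wide spread between day 4 arrays. Of 39 collagens and matrix genes 14 rose and 0 fell, with a median of 1.09 log2, and the count was 8 without normal replicate 2 or day 4 replicate 2 or 3, 9 without normal replicate 3 and 23 without day 4 replicate 1. Postn, the periostin of activated fibroblasts, was 6.37, 5.1 and 5.49 against 8.48, 12.48 and 10.55 (4.85 log2, SE 1.03, adjusted p = 0.00373). Col1a1, a chain of type I collagen, was 7.97, 6.57 and 7.02 against 8.61, 13.31 and 12.06 (4.14 log2, SE 1.17, adjusted p = 0.0241). In both genes day 4 replicate 2 was highest and replicate 1 lowest, and Col1a1 was not called without normal replicate 2 or 3 or day 4 replicate 2 or 3 (adjusted p = 0.0734 to 0.139). Of 19 fibroblast markers 5 rose (2 without normal replicate 2 or 3 or day 4 replicate 2 or 3 and 9 without day 4 replicate 1). Their summed signal was 12.68, 15.71 and 14.34 in day 4 replicates 1, 2 and 3 and 12.04 to 12.74 in normal arrays. Col1a1 and Postn are themselves members of this marker list, so its sum follows them in part by construction. The part of fibroblast RNA in the matrix result was not tested. Tnc, tenascin C, rose by 4.96 and the osteopontin gene Spp1 by 3.42 log2. Of 34 proteases and inhibitors 12 rose and 1 fell, among the risers Adamts4 (3.51), the cathepsin gene Ctss (3.505) and Timp1 (2.26). With 1 of the 6 arrays left out 9 to 12 higher and 0 to 3 lower were counted. Graft leukocytes were at least 2-fold higher than day 4 endothelium, without overlap, for 11 of the 34, against 8.58% of all genes. The part of leukocyte RNA in this list was not tested.

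Markers of other cell types were called in part. Among 27 cardiomyocyte markers 3 fell, Myh6 (-1.82), Mb (-1.49) and Tnni3 (-1.16), against 1 higher and 5 lower without day 4 replicate 1. A dimmer probe set of Myh6 differed by 0.09 and was not called. Tnni3 was not called without normal replicate 2 or 3 or day 4 replicate 3 (adjusted p = 0.0586 to 0.13). Of 16 mural markers 3 rose (Tagln, 1.29, Des, 1.26, and Acta2, 0.72) and 1 fell (Smtn, -0.99), against 1 higher and 0 lower without normal replicate 3, 1 higher and 1 lower without day 4 replicate 2, 3 higher and 0 lower without normal replicate 2 and 4 higher and 0 lower without day 4 replicate 3. Of the mural calls, those lost were Tagln without normal replicate 3 or day 4 replicate 2 (adjusted p = 0.113 to 0.145) and Acta2 without normal replicate 3 or day 4 replicate 2 or 3 (adjusted p = 0.0748 to 0.105), and Smtn without normal replicate 2 or 3 or day 4 replicate 3 (adjusted p = 0.109 to 0.181). Of 10 lymphatic markers Pdpn (2.65) and Nts (1.37) rose, against 1 higher and 0 lower without normal replicate 1, 2 or 3 and 1 higher and 1 lower without day 4 replicate 2, and Nts was not called without normal replicate 1, 2 or 3 or day 4 replicate 2 (adjusted p = 0.107 to 0.179, 0.47 log2 without day 4 replicate 2). Of 11 epicardial and mesothelial markers Aldh1a1 (-1.53) and Wt1 (-0.9) fell, against 0 higher and 1 lower without normal replicate 3 or day 4 replicate 3 and 2 higher and 2 lower without day 4 replicate 1, with Aldh1a1 not called without normal replicate 3 or day 4 replicate 3 (adjusted p = 0.0589 to 0.0666). Platelet markers counted 3 of 8, of which Selp is also made by endothelium. Their summed signal was 10.01 to 10.15 log2 in normal and 11.81 to 12.19 in day 4 arrays. Selp, which rose by 3.54 log2, is a member of this list, so the sum follows it in part by construction. The part of platelet RNA in the results was not tested. Red cell markers counted 0 of 8, against 0 higher and 1 lower without day 4 replicate 1.

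**Figure D3:**
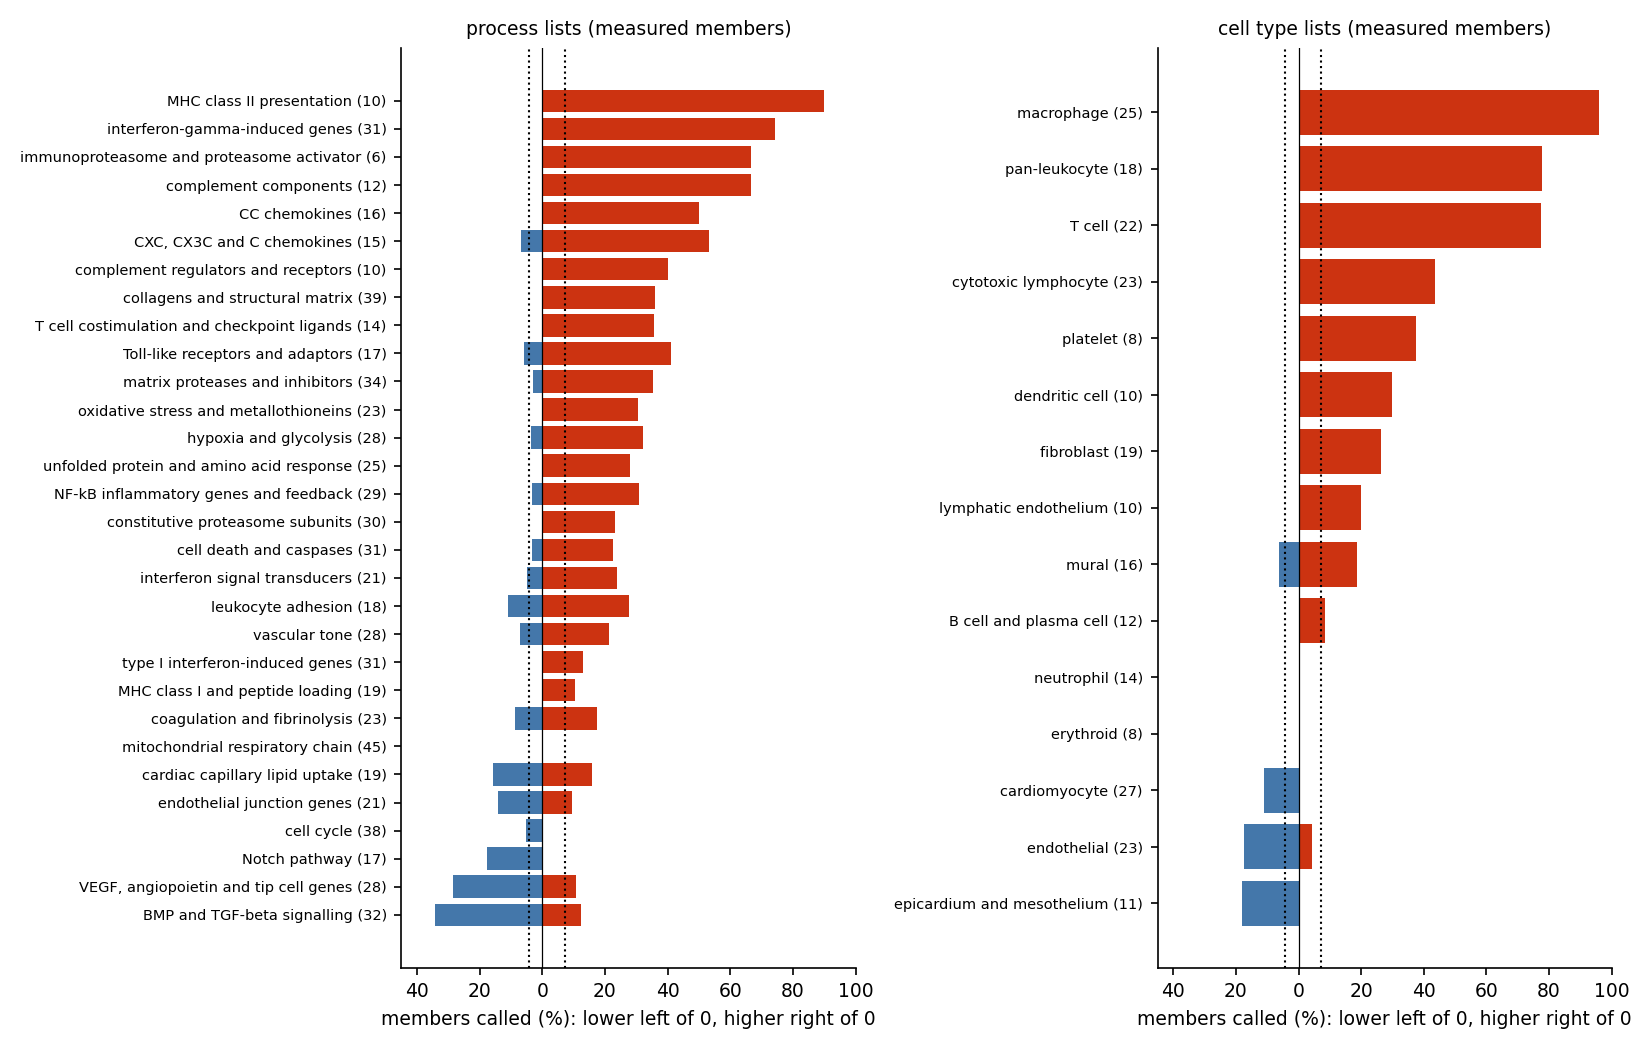
Share of measured members called (x axis, %) in each of 30 process lists (left) and 15 cell type lists (right), higher in red and lower in blue, with dotted lines at the shares over all genes (7.19% higher, 4.26% lower) and the number of measured members in brackets. The macrophage list reaches farthest to the right, at 96%, and BMP and TGF-beta signalling farthest to the left among the process lists, at 34.4%.

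The genes that fell most came from several functions. Cyp26b1, which degrades retinoic acid, was 9.65, 10.58 and 10.93 against 8.78, 7.93 and 6.06 (-2.79 log2, SE 0.5, adjusted p = 0.000886). Mycn, a transcription factor of growing cells, was 10.1, 9.15 and 9.93 against 6.86, 7.81 and 6.86 (-2.55 log2, SE 0.37, adjusted p = 0.000135). Enpep, aminopeptidase A, was 12.09, 12.03 and 12.26 against 10.99, 10.79 and 8.87 (-1.91 log2, SE 0.35, adjusted p = 0.0011), with a dimmer probe set at -0.47 and not called. All 3 genes were apart between the groups. The corepressor gene Runx1t1 fell by 2.18, Qpct, an enzyme that modifies peptide ends, by 1.94 and Lnx1, a ubiquitin ligase gene, by 1.92 log2. Gad1 (-2.14) and Pnkd (-2.11) fell by 1 probe set each while a dimmer set differed by -0.23 and -0.07. Calls were lost for Lnx1 without normal replicate 2 or 3 or day 4 replicate 3 (adjusted p = 0.0724 to 0.126, -0.99 log2 without day 4 replicate 3) and Gad1 without day 4 replicate 3 (adjusted p = 0.0628). Enpep differed by -1.23 log2 without day 4 replicate 3 and remained called.

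Changes in allografts were set against those in isografts of the same day, which had the surgery without the mismatch. Isografted hearts were Lewis and allografted hearts DA, so mismatch and donor strain cannot be told apart in this comparison. The tested difference of both changes was called for 1 gene of 14217 (0.00703%), Sectm1b, with 783 genes at an unadjusted p under 0.05 (limma). Sectm1b differed by 3.33 log2 in allografts and by -0.03 in isografts, a difference of 3.35 log2 (SE 0.37, adjusted p = 0.000197). Without day 4 replicate 1, 75 genes changed more upward in allografts (0.528%) and 6 more downward (0.0422%). In that fit 8 of the 31 interferon-gamma genes and 5 of the 22 T cell markers were called. The differences there were 6.57 log2 for Ido1, 4.44 for Batf2, 3.56 for Cd3g, 3.36 for Gzmb and 3.19 for RT1-Db1. Day 4 replicate 1 had been set apart for lying nearest to normal, so larger differences without it follow in part from that choice. With any other array of the groups compared left out, 1 gene was called.

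With all arrays the changes stood side by side as follows. Interferon-gamma genes had a median change of 1.75 log2 in allografts and 0.29 in isografts, and T cell markers 1.29 and 0.03. MHC class II genes had medians of 3.27 and 1.3 log2, and macrophage markers 3.08 and 2.98. Cxcl11 differed from normal by 6.83 in allografts and 2.8 log2 in isografts, Selp by 3.54 and 3.83, Sele by 2.53 and 3.57, and Gpnmb by 5.66 and 5.97. Of the fallers Mycn stood at -2.55 and -0.61, Gad1 at -2.14 and 0.08, and Cyp26b1 at -2.79 and -2.37 log2. None of these genes passed the test of the difference with all arrays, which does not show that the changes were alike.

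**Figure D4:**
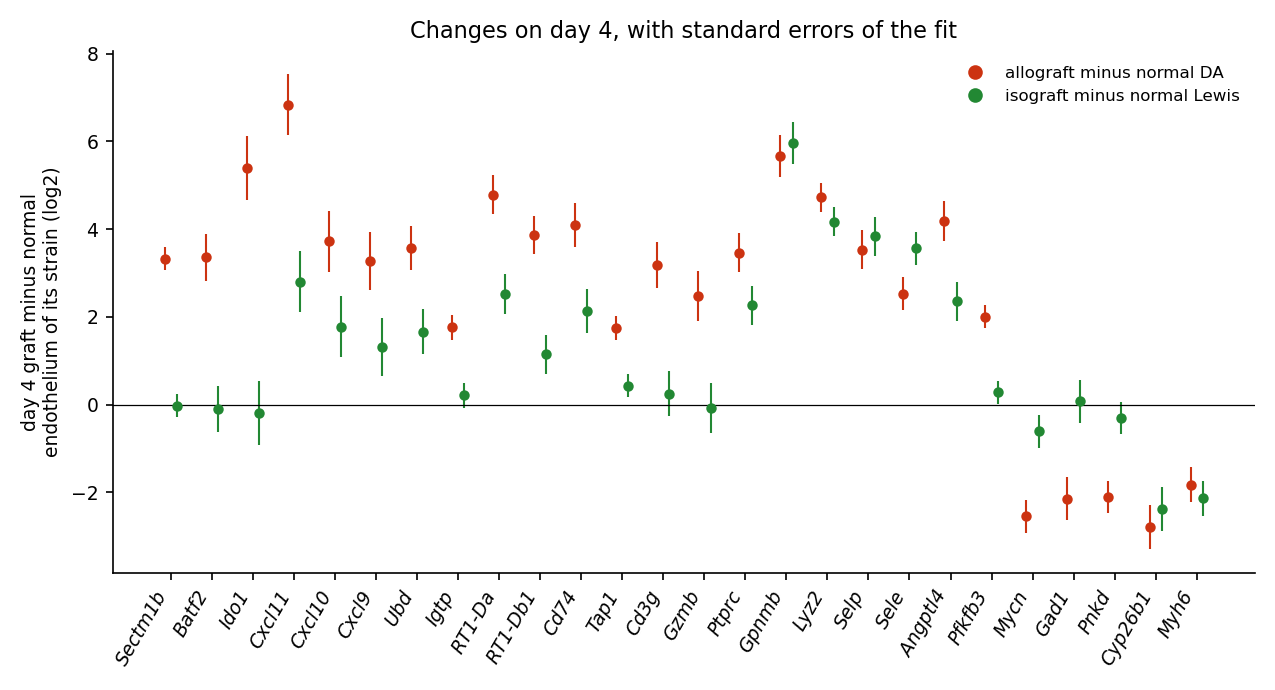
Change on day 4 in log2 (y axis) with the SE of the fit as bars for 26 genes (x axis), in allografts against normal DA (red) and in isografts against normal Lewis endothelium (green). Sectm1b, Batf2 and Ido1 stand near 0 in isografts and at 3.33, 3.36 and 5.39 in allografts, while Gpnmb stands at 5.97 and 5.66.

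Day 4 was also compared with earlier allografts, which were set against the same normal arrays. Against day 2, 54 genes were higher on day 4 (0.38%) and 0 lower (limma, 1197 genes at an unadjusted p under 0.05). Of the 31 interferon-gamma genes 18 were among them, with a median of 1.96 log2, against 8 without day 4 replicate 2 or 3 and 25 without day 4 replicate 1. Ido1, at 0.7 log2 above normal on day 2 and 5.39 on day 4, differed by 4.69 log2 (SE 0.73, adjusted p = 0.00363). Relative to normal, Batf2 stood at 0.04 on day 2 and 3.36 on day 4, Gbp7 at -0.66 and 1.92, Igtp at -0.55 and 1.76, and Tap1 at -0.21 and 1.75 log2. One day 2 array stood apart: replicate 3 was the lowest of the 3 in 27 of the 31 interferon-gamma genes. Without it the day 2 means stood at 1.43 for Ido1, 0.36 for Batf2, 0.06 for Gbp7, -0.17 for Igtp and 0.09 log2 for Tap1 relative to normal. Ido1 then differed by 3.96 log2 between the days (adjusted p = 0.0304), and 12 of the 31 genes were higher on day 4. Of the 31 type I interferon genes 4 were higher on day 4 than on day 2, against 1 without day 4 replicate 3, 2 without day 4 replicate 2 or day 2 replicate 2 or 3, 9 without day 2 replicate 1 and 22 without day 4 replicate 1. The median of the list against normal was -0.88 log2 on day 2 and -0.07 on day 4. Gbp4, a guanylate-binding protein gene, was 3.23 log2 higher than on day 2 and did not pass against normal hearts (1.48 log2, adjusted p = 0.113). Between the days, calls were lost for Gbp4 without day 4 replicate 2 or 3 or day 2 replicate 3 (adjusted p = 0.0629 to 0.123) and Gbp7 without day 4 replicate 2 or 3 or day 2 replicate 2 or 3 (adjusted p = 0.0713 to 0.158).

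Other late genes lay outside that list. Pfkfb3 stood 0.35 above normal on day 2 and 2.002 on day 4, C1qa 2.27 and 3.87, and C3h15orf48 1.77 and 4.14 log2. Calls between the days were lost for C1qa without day 4 replicate 2 or 3 or day 2 replicate 1 or 2 (adjusted p = 0.0934 to 0.219) and C3h15orf48 without day 4 replicate 2 or 3 or day 2 replicate 1 or 2 (adjusted p = 0.0713 to 0.211). Selp stood 3.55 and 3.54 log2 above normal, and 0 of 18 adhesion genes were called between the days (limma, 4 at an unadjusted p under 0.05). Macrophage markers counted 2 of 25, against 0 without day 4 replicate 2 or 3 or day 2 replicate 2 and 1 without day 2 replicate 1. Of the 54 late genes 47 had a promoter window, and 18 of these held an ISRE match (38.3%). The 54 calls became 506 without day 4 replicate 1 (393 higher, 2.76%, and 113 lower, 0.795%). They became 21 and 15 without day 4 replicates 2 and 3 and 28 without day 2 replicate 2.

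Between day 3 and day 4, 0 genes were called (limma, 1300 at an unadjusted p under 0.05). Without day 4 replicate 1, 526 genes were higher (3.7%) and 213 lower (1.5%) on day 4 than on day 3. In that fit 14 of the 31 interferon-gamma genes were higher, among them Batf2 (2.79) and Sectm1b (1.73). Of the 19 lipid uptake genes 5 were lower there, among them the fatty acid carrier genes Cd36 (-1.75) and Fabp4 (-1.3) and Gpihbp1 (-1.2), which holds lipoprotein lipase at the capillary wall. These genes were picked after their values had been seen, and day 4 replicate 1 had been set apart for lying nearest to normal. Larger differences without that array follow in part from this choice. With any other array of the 2 days left out, 0 genes were called.

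**Figure D5:**
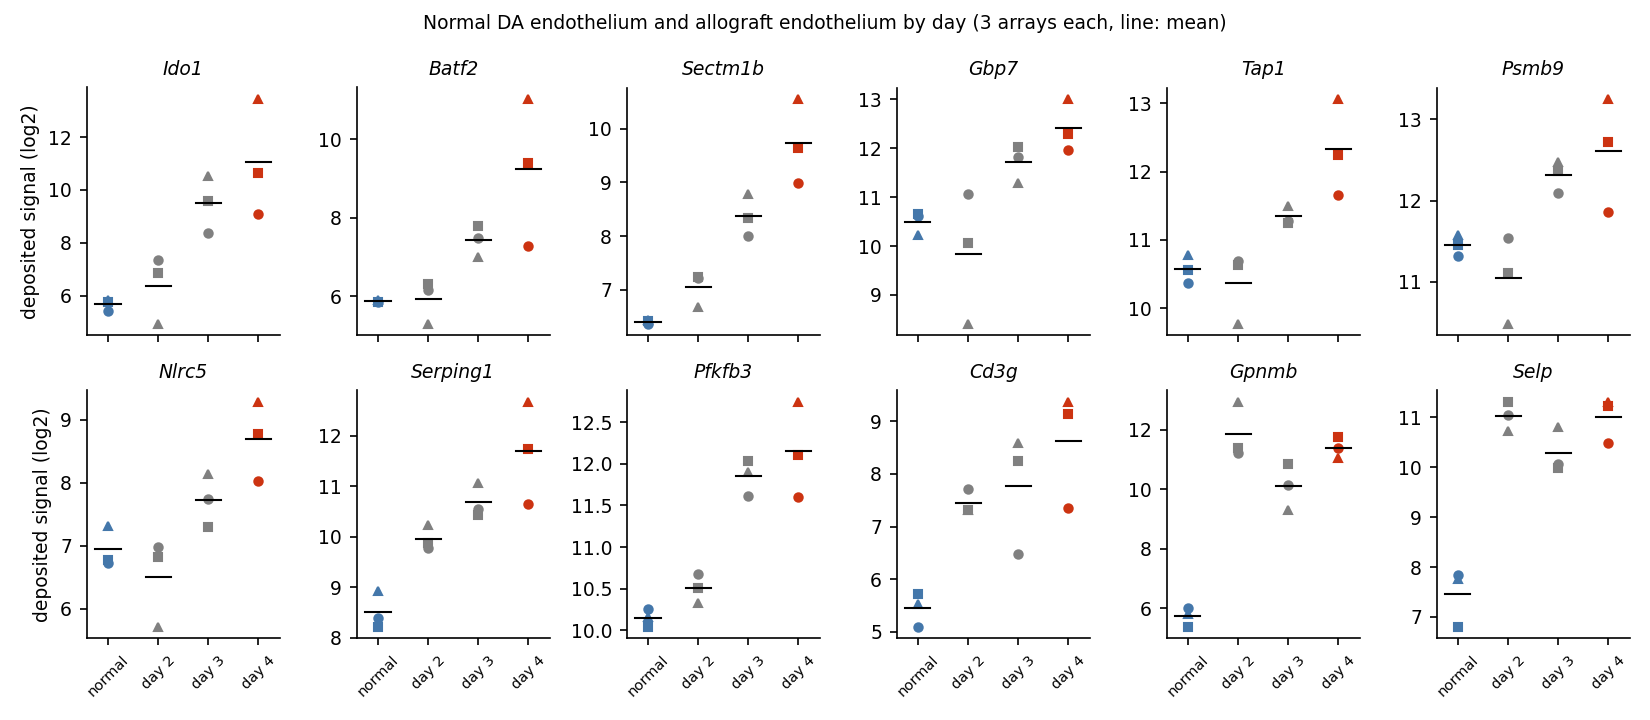
Deposited log2 signal (y axis) of 12 genes in normal DA endothelium and in allografts of days 2, 3 and 4 (x axis), with 3 arrays a group, a symbol for each replicate and lines at the means. Ido1, Batf2 and Sectm1b have their highest means on day 4, whereas Selp stands 3.55 log2 above normal on day 2 and 3.54 on day 4.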

How the data were processed

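RNA was hybridized to Affymetrix arrays. The authors deposited log2 signals per probe set made with RMA in the affy package, per the submitters' processing notes, whose versions are not given there. The 4 leukocyte arrays appear, from their medians, to have been normalized apart from the 24 endothelial arrays. They therefore entered no fit and are levels only. Of 31099 probe sets, 20826 named a single gene; 57 controls, 436 that named several genes and 9780 not listed in the annotation were left out. The probe set with the highest mean stood for each of 14217 genes, with no filter. limma 3.58.1 (lmFit and eBayes, R 4.3.3) was fitted to the 24 endothelial arrays with a mean per group (16 residual degrees of freedom), p-values adjusted over all genes after Benjamini-Hochberg. Figures used Python 3.11.15, pandas 2.3.3 and matplotlib 3.10.9. Tested on simulated data of 14217 genes, the fit of day 4 against normal hearts found 81% of 100 genes shifted by 1 log2 and 99% of 100 shifted by 2. There were 8 false calls among the genes not shifted. The simulation gave a gene the same spread in every group, while the median standard deviation was 0.198 in day 4 and 0.134 in normal DA arrays. These rates therefore need not hold for the data. Array number limits the precision.

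The comparison and the 45 gene lists were chosen with earlier results of these data known. Named were, of called genes without overlap, the 16 highest and 14 lowest, up to 4 called members of each list (the 2 largest differences where none was called), the 8 highest and 6 lowest called against isografts and day 2, and Pecam1, Vwf and Ptprc. Other genes were chosen after their values were seen. Alternatives were the arrays fitted, dim genes left out, the probe set rule, the prior, array weights, centring, the replicate block and each array left out. Gene symbols and promoters came from RefSeq, and 11700 of the genes had a promoter window.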

Additional observations from a re-analysis of the deposited data

Results flagged for a closer look

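The change of Sectm1b on day 4 differed between graft types: it was 3.33 log2 in allografts and -0.03 in isografts, a difference of 3.35 log2 (SE 0.37, limma adjusted p = 0.000197), with all 3 day 4 allograft arrays above all normal DA arrays. Donor strain differed between the graft types as well, and no explanation of this was tested.

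Changes that differed between day 4 and day 2 of the allografts, both against the same normal arrays, were found for 20 of the genes named, all higher on day 4, with limma adjusted p from 2.43e-05 to 0.0352. Of these, 12 lost their call without at least 1 of the 6 allograft arrays of days 2 and 4. The largest differences were 4.69 log2 for Ido1, 3.32 for Batf2 and 3.23 for Gbp4. The others were 2.69 for Sectm1b, 2.58 for Gbp7, 2.53 for Ubd, 2.37 for C3h15orf48, 2.32 for Igtp, 2.19 for Nlrc5, 1.96 for Tap1 and 1.73 for Serping1. Smaller ones were 1.65 for Pfkfb3, 1.6 for C1qa, 1.59 for Parp14, 1.57 for Psmb9, 1.49 for Psmb8, 1.38 for Pfkp, 1.27 for Dtx3l, 1.2 for Psmb10 and 1.12 for Parp9 (log2).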

How the results depend on the processing

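The 1627 calls of day 4 against normal hearts became 514 when the fit held only the 6 arrays compared, which have fewer degrees of freedom, and 3000 with array weights. They ran over 862 to 2606 with any of the 6 arrays left out. The other settings gave 1573 (median of probe sets) to 1708 (every probe set tested), and 1889 with the replicate block. Deviations of same-numbered day 4 allograft and normal DA arrays correlated at 0.0387, -0.216 and 0.0226. Those of day 4 isograft and normal Lewis arrays correlated at 0.219, 0.238 and -0.157. With 3 arrays a group these values cannot decide whether the replicate numbers pair the samples. For the difference from isografts (1 call) the counts were 2 with the groups compared alone, 6 with array weights and 1 to 81 with an array left out. Against day 2 (54 calls) they were 0, 434 and 15 to 506, and against day 3 (0 calls) 0, 170 and 0 to 739. Of the 174 genes chosen by rule, 66 lost their call with the 6 arrays alone, 4 when arrays were centred on the 75th percentile, 5 with the median of probe sets and up to 39 with an array left out. Alas2 (-0.71 log2, not called) changed sign without day 4 replicate 2 (0.14) and was -2.2 without replicate 1. The cause of these shifts was not tested.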

Other observations

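Several genes not described above, chosen after their values were seen, moved on day 4. Dhrs3, which turns retinal back to retinol, was 10.35, 10.72 and 10.72 in normal hearts and 10.01, 9.61 and 8.07 on day 4 (-1.37 log2, SE 0.31, adjusted p = 0.0068, limma), and differed by -0.79 log2 without day 4 replicate 3. The retinoid-binding Rbp7 (-1.22) and the receptor gene Rarb (-0.82) fell with Cyp26b1, while Rarres1 (1.8) and Rarres2 (1.55) rose, and Crabp2 (0.67), Stra6 (0.09), Rdh10 (-0.33) and Aldh1a2 (0.54) did not pass. Rbp7 was not called without normal replicate 1, 2 or 3 or day 4 replicate 2 or 3 (adjusted p = 0.0723 to 0.328, -0.55 log2 without day 4 replicate 3). Fgf23, best known as a bone hormone, was 4.99, 4.94 and 4.73 against 7.89, 8.86 and 9.03 (3.71 log2, SE 0.38, adjusted p = 2.72e-06), with no overlap.

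Of single genes outside the lists, also chosen after their values were seen, Fgl2 rose by 3.8, Il10 by 2.46 and Il18bp, a decoy for interleukin-18, from 8.73, 9.03 and 9.36 to 10.08, 11.36 and 12.53 (2.28 log2). The later enzymes of tryptophan breakdown Kynu (0.05), Kmo (0.29) and Haao (-0.11) did not pass. The flow-responsive transcription factor genes Klf4 (-0.87) and Klf2 (-0.5) fell, and the nitric oxide synthase genes Nos3 (-0.35) and Nos2 (-0.06) were not called. Klf2 lost its call without normal replicate 2 or 3 or day 4 replicate 3 (adjusted p = 0.102 to 0.125).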
